A study of Mus musculus with 10 samples.

Results

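Erythroid transcription factors were examined in sorted R2 cells, the CD71+Ter119+ erythroid progenitors of mouse bone marrow (BM). The members were 10 genes taken by symbol (Gata1, Klf1, Tal1, Nfe2, Gfi1b, Zfpm1, Lmo2, Ldb1, Bcl11a and Myb), of 24421 genes counted, and all 10 were among the 11846 genes with enough counts to be tested. RNA-seq was done on 10 libraries, each from the R2 cells of 1 recipient mouse, so the replicates are separate mice. Lethally irradiated BoyJ mice received 1000000 BM mononuclear cells from RosaCreERT2 donors, were given 1 mg of tamoxifen per injection in 2 rounds of 5 days with 2 days between them, and were examined 8 weeks after the transplant, when about 100000 cells were sorted. The question was how loss of 1 Ddx41 allele, with and without loss of 1 Trp53 allele, changed these progenitors.

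The 4 groups were Ddx41+/+Trp53+/+ (3 mice, replicates 10, 11 and 12), Ddx41+/-Trp53+/+ (2 mice, replicates 32 and 34), Ddx41+/+Trp53+/- (3 mice, replicates 22, 23 and 24) and Ddx41+/-Trp53+/- (2 mice, replicates 46 and 47). Ddx41+/- donors carried 1 floxed Ddx41 allele and Trp53+/- donors lacked 1 Trp53 allele. Donors of every group, the controls included, carried the RosaCreERT2 transgene, in which a Cre that needs tamoxifen is driven by a locus active in most cell types, and every recipient was given tamoxifen. Recipient cells that outlived irradiation can be among the sorted cells, because the sort used no marker of the donor. In bulk samples fewer cells of a type and less RNA per cell cannot be told apart.

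GATA1 is the zinc finger factor that commits progenitors to the red cell and megakaryocyte lineages, and it works with its cofactor FOG1 (encoded by Zfpm1). GATA1 joins TAL1, LMO2 and LDB1 in a complex in which GATA1 and TAL1 touch DNA at GATA and E-box motifs while LMO2 and LDB1 bridge the proteins and loop enhancers to promoters. KLF1 binds CACCC motifs of globin, heme and membrane genes, NF-E2 (the p45 subunit is encoded by Nfe2) pairs with small MAF proteins at the globin locus control region, GFI1B and BCL11A repress genes of other stages, and MYB keeps early progenitors proliferating and declines as red cells mature.

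The DNA just upstream of 4 members is shown because these members carry the results below. Klf1 had the highest level per length, Gata1 heads the network, Gfi1b had the lowest correlation with Myb across libraries, and Myb was the member that passed a test. Upstream windows of the members were taken from RefSeq (GRCm38.p6, 250 bases before each start, of which Klf1 is printed without its last bases, since GENCODE M21 places its first exon there). They run 5′ to 3′ on the strand of the gene, and capitals mark GATA motifs (AGATAA, or the same letters with T at the start or G at the end) and CACCC motifs (CCNCNCCC) on either strand.
Klf1, chr8:84901732-84901927, plus strand: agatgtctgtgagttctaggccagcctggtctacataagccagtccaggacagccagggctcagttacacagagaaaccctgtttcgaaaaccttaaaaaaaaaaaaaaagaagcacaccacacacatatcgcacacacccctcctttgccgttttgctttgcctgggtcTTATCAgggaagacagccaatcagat
Gata1, chrX:7967911-7968160, minus strand: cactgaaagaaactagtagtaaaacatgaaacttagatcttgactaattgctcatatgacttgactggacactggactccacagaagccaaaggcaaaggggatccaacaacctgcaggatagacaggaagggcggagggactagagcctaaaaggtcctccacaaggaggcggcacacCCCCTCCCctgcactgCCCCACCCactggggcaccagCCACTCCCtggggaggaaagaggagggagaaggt
Gfi1b, chr2:28621983-28622232, minus strand: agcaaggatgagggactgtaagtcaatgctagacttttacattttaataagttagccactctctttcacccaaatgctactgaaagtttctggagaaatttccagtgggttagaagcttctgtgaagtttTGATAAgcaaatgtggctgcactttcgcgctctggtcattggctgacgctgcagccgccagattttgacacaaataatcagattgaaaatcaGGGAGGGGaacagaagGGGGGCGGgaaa
Myb, chr10:21160985-21161234, minus strand: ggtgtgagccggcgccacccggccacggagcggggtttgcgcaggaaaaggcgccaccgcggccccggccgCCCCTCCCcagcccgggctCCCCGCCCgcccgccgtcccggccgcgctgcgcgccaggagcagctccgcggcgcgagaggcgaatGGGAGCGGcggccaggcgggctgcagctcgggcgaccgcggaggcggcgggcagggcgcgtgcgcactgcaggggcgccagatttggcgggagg
The Gata1 window lies in an intron of longer Gata1 transcripts, and the other 3 lie directly upstream of the annotated gene.

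Windows were found for 8 of the 10 members (11 windows, since some have several starts), and none was listed for Nfe2 and Lmo2. A GATA motif lay in 4 of these 11 windows, those of Klf1, Gfi1b, Ldb1 and Tal1, against 26.5% of all 32851 windows, with the full 250 bases searched in every window, that of Klf1 included. A CACCC motif lay in 9 of the 11, against 45.9% of all windows, and an E-box (CAGNTG) in 2, against 44.8%. These are matches of letters and say nothing of binding.

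As a check of the data, the libraries held 7866648 to 20283930 counts, and the members rested on 179 counts (Myb, replicate 34) to 33061 counts (Zfpm1, replicate 11). No member shared a 75-base stretch with another gene. Ddx41 was lower in Ddx41+/- mice over both Trp53 genotypes (log2 fold change -0.70, edgeR adjusted p = 0.0173), and Trp53 was lower in Trp53+/- mice (-0.48, adjusted p = 0.00355), as their labels state. Summed over each list, erythroid markers held 40587 to 46408 CPM (counts per 1000000 counts of a library) per library, of which Slc4a1 and Alas2 were among the highest. Neutrophil and monocyte markers held 5011 to 8516 CPM, macrophage markers 186 to 425 CPM, megakaryocyte markers 84.0 to 105 CPM, T cell markers 17.7 to 25.1 CPM and stem cell markers 13.1 to 24.4 CPM. B cell markers held 48.6 to 212 CPM, and they differed between genotypes, as given with Myb below.

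Most members were abundant, and Myb and Bcl11a were not. Per kb of merged exons, over the 10 libraries, Klf1 was highest at 607 ± 32.5 CPM per kb (mean ± SD, n = 10), rank 50 among 11760 tested genes with a length. Zfpm1 followed at 457 ± 44.2, Lmo2 at 366 ± 22.5, Tal1 at 299.9 (281.8 to 312.2 over the libraries), Nfe2 at 244 ± 9.83, Gata1 at 173 ± 9.20, Gfi1b at 123 (100.1 to 142.8) and Ldb1 at 35.8 ± 2.49 CPM per kb. Myb, at 2.94 ± 0.769, and Bcl11a, at 1.81 ± 0.211 CPM per kb, ranked 6347 and 7451. With merged exons as the length, the order held in every library for each pair of neighbours except Myb and Bcl11a, where Myb was higher in 9 of 10 libraries. Merged exons held 2988 bases for Nfe2, 4379 for Tal1, 8933 for Myb and 13175 for Bcl11a. The order of members and the ratios between them depend on these lengths, and no order by another length was computed. Across libraries the ranges of Zfpm1 and Lmo2 overlapped, as did those of Myb and Bcl11a, and the ranges of all other neighbours were apart. The bridging protein Lmo2 stood above its partner Ldb1 by a median ratio of 10.2 (9.26 to 11.3 over the libraries).

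Among factors of other stages, by the means of the same measure, Gata2 stood below every member, while Fli1 and Spi1 lay between Ldb1 and Myb. The ranges of Fli1 (1.95 to 4.72 CPM per kb over the libraries) and Myb (1.46 to 3.83) overlapped, and their order also depends on the length used. Gata2, which precedes Gata1 at shared sites in immature progenitors, held 0.780 CPM per kb, and Gata1 stood above it by a median ratio of 204 (154 to 1462 over the libraries). The top of that range rests on replicate 34, with 5 Gata2 counts, and replicate 10, with 23 (ratio 799), and the ratio was at most 230.2 in the other 8 libraries. Spi1, the PU.1 factor of myeloid cells, held 14.7 and Fli1, a megakaryocyte and stem cell factor, 3.32 CPM per kb. E2f2, a cell cycle factor of terminal erythroid divisions, held 480 CPM per kb, between the means of Klf1 and Zfpm1. Its range over the libraries (440 to 548) lay within that of Zfpm1 (402 to 550).

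**Figure D1:**
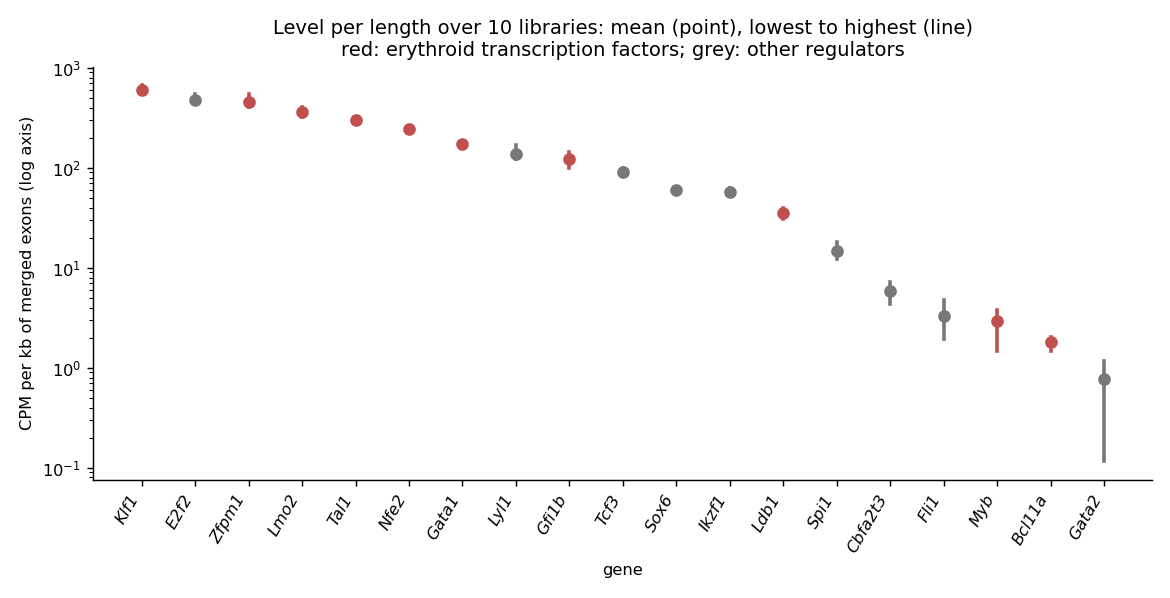
Level per length (CPM per kb of merged exons, log axis) of the 10 erythroid transcription factors (red) and 9 other regulators (grey), ordered by mean. Points are means over 10 libraries and lines run from the lowest to the highest library. Klf1 tops the order at 607, and Myb (2.94) and Bcl11a (1.81) lie at the low end, above Gata2 (0.780).

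In the comparisons of genotypes, the erythroid factors changed little. Of the 10 members, Myb alone passed a test, and it was higher in Trp53+/- than in Trp53+/+ mice when Ddx41 was intact. No member passed in the comparison of Ddx41+/- with Ddx41+/+ mice on either Trp53 background. A gene was called at an adjusted p under 0.05 (edgeR quasi-likelihood test, Benjamini-Hochberg over 11846 genes) with a fold change over 1.5, which is 0.58 on the log2 scale.

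With Trp53+/+, 0 members were called in Ddx41+/- against Ddx41+/+ mice, where 0.540% of all tested genes were. None had an unadjusted p under 0.05 (9.64% of all genes), and DESeq2 also called 0. The values of 2 members, Tal1 and Myb, did not overlap between the groups, as for 24.9% of all genes. The median log2 fold change of the members was 0.03 and that of all tested genes 0.00102. For the 8 members other than Myb and Bcl11a, the 95% intervals lay between -0.28 and 0.35, so a change of 1.5-fold lay outside them.

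With Trp53+/-, 0 members were called in Ddx41+/- against Ddx41+/+ mice (0.0422% of all genes), 0 had an unadjusted p under 0.05 (3.75%), and DESeq2 called 0. Between these groups 6 members did not overlap, against 20.0% of all genes. These were Gata1, Klf1, Zfpm1, Lmo2, Bcl11a and Myb, each lower in the Ddx41+/-Trp53+/- mice. Of the 10 members 9 had a negative log2 fold change, with a median of -0.08, against -0.00500 for all tested genes. The Ddx41+/+Trp53+/- mice, the reference here, were themselves above the Ddx41+/+Trp53+/+ mice in 8 of the 10 members (median 0.08). Against the Ddx41+/+Trp53+/+ mice the Ddx41+/-Trp53+/- mice were higher in 5 members and lower in 5 (median -0.02). Markers of other cells also moved between the Ddx41 genotypes with Trp53+/-. All 7 macrophage markers had positive log2 fold changes (median 0.54, 4 at an unadjusted p under 0.05, 5 not overlapping, 0 called), with a summed level of 186 to 264 CPM in Ddx41+/+Trp53+/- and 291 to 378 CPM in Ddx41+/-Trp53+/- mice. Of the 7 erythroid markers tested, 6 had negative ones (median -0.12, 0 at an unadjusted p under 0.05), with a summed level of 43296 to 46408 and 40587 to 43320 CPM. Their part in the members' values was not tested. The largest differences were those of Bcl11a (-0.28, 95% interval -0.59 to 0.04), Myb (-0.19, -0.57 to 0.18) and Zfpm1 (-0.19, -0.38 to 0.00413), and each had an adjusted p of 0.9997.

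With Ddx41+/+, 1 member (Myb) was called in Trp53+/- against Trp53+/+ mice, against 0.912% of all genes. At an unadjusted p under 0.05 there were 3, Myb, Lmo2 and Gfi1b, against 9.44% of all genes, and the values of 5 did not overlap (these 3, Klf1 and Zfpm1), against 14.1%. With Ddx41+/-, 0 members were called between the Trp53 genotypes (0.169% of all genes), 1 had an unadjusted p under 0.05 (Zfpm1, 5.41% of all genes), and DESeq2 called 0. The Zfpm1 difference (-0.23) rests largely on replicate 34, at 1928 CPM. Replicate 32 held 1511 CPM, between the 1409 and 1529 CPM of the Ddx41+/-Trp53+/- mice. The values of 4 members, Lmo2, Ldb1, Bcl11a and Myb, did not overlap, against 37.3% of all genes.

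Mice heterozygous for both genes were also set against mice wild type for both. Here 0 members were called (1.11% of all genes), while DESeq2 called 1 (Myb). Gfi1b and Myb had an unadjusted p under 0.05 (2 members, 11.6% of all genes), and 4 members, Tal1, Gfi1b, Lmo2 and Myb, did not overlap (28.3%). For the interaction, the difference between the Ddx41 effects on the 2 Trp53 backgrounds, 0 members were called (0.0675% of all genes), DESeq2 called 0, and 1 had an unadjusted p under 0.05 (Zfpm1, 5.01% of all genes). In the test of any difference among the 4 genotypes, called at an adjusted p alone, 1 member passed (Myb, adjusted p = 0.0492, 1.39% of all genes).

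The additive fits averaged each effect over the genotypes of the other gene. Over both Trp53 genotypes, 0 members were called between the Ddx41 genotypes (0.110% of all genes), 0 had an unadjusted p under 0.05 (8.98%), 0 did not overlap (1.57%), and DESeq2 called 0. The largest difference of any member there was -0.09 (Gata1, 95% interval -0.20 to 0.02). Over both Ddx41 genotypes, 0 were called between the Trp53 genotypes (0.287% of all genes), while DESeq2 called 1 (Myb). Gfi1b, Lmo2 and Myb had an unadjusted p under 0.05 (3 members, 11.2% of all genes), and Lmo2 and Myb did not overlap (2 members, 2.01%). These comparisons share mice, since each group enters several of them, and are not independent of each other.

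**Figure D2:**
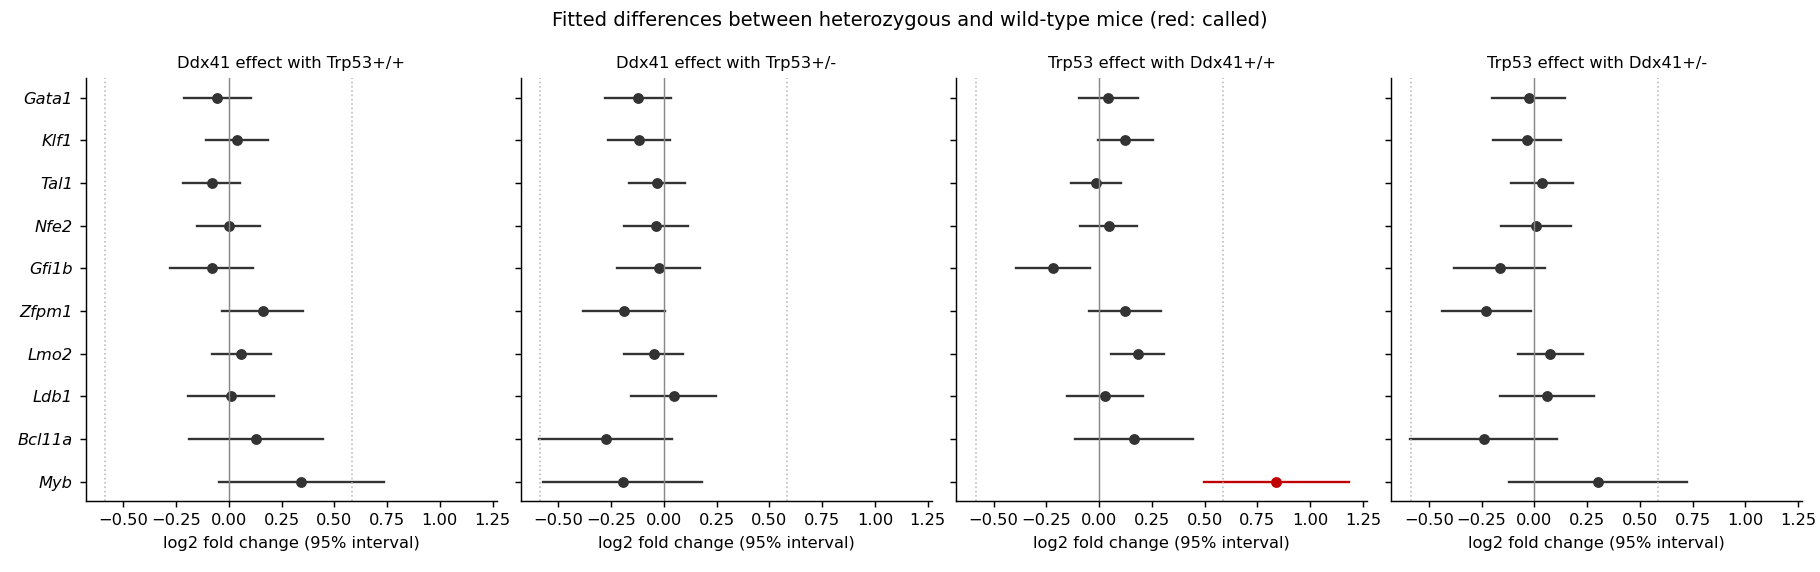
Fitted log2 fold changes (points) with 95% intervals (lines) of the 10 factors in 4 comparisons of heterozygous with wild-type mice, from the edgeR fit of all 10 libraries; dotted lines mark 1.5-fold and red marks a called gene. Myb in the Trp53 comparison with Ddx41+/+ (0.84, 0.50 to 1.18) is the one in red.

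The DNA-binding activators had the smallest ratios of the highest to the lowest library (1.11 for Tal1 to 1.19 for Klf1). By the SD of log2 CPM within genotypes, Lmo2 (0.05) varied less than Gata1, Klf1 and Nfe2 (0.06 to 0.07). Gata1 held 438, 447 and 391 CPM in the Ddx41+/+Trp53+/+ mice, 401 and 419 in the Ddx41+/-Trp53+/+ mice, 455, 442 and 418 in the Ddx41+/+Trp53+/- mice, and 402 and 403 in the Ddx41+/-Trp53+/- mice. The groups overlapped except that both Ddx41+/-Trp53+/- mice lay below the 3 Ddx41+/+Trp53+/- mice. The difference was -0.12 on the log2 scale (95% interval -0.28 to 0.03, adjusted p = 0.9997).

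Tal1, the basic helix-loop-helix partner of GATA1, held 1314, 1340 and 1367 CPM in Ddx41+/+Trp53+/+, 1299 and 1234 in Ddx41+/-Trp53+/+, 1363, 1354 and 1264 in Ddx41+/+Trp53+/-, and 1290 and 1306 in Ddx41+/-Trp53+/- mice. Both Ddx41+/- groups lay below all 3 control mice, by a margin that the test did not separate from the spread (-0.08 and -0.05, adjusted p = 0.753 and 0.836). Within genotypes its log2 CPM had an SD of 0.04, at percentile 0.929 of the SDs of all tested genes.

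Klf1 held 922, 915 and 859 CPM in Ddx41+/+Trp53+/+, 882 and 965 in Ddx41+/-Trp53+/+, 1023, 931 and 984 in Ddx41+/+Trp53+/-, and 914 and 892 in Ddx41+/-Trp53+/- mice. Its 2 highest libraries were Ddx41+/+Trp53+/- mice, and all 3 of that group lay above the controls (0.12, 95% interval -0.01 to 0.26, adjusted p = 0.560). Nfe2 held 678 to 771 CPM over all 10 mice, with group means of 721, 721, 744 and 725 CPM in the order above. No pair of its groups was apart, and its highest-to-lowest ratio over the 10 libraries was 1.14.

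The bridging and cofactor genes had higher ratios of the highest to the lowest library, from 1.25 (Lmo2) to 1.37 (Zfpm1). Lmo2 held 758, 762 and 703 CPM in Ddx41+/+Trp53+/+ and 759 and 786 in Ddx41+/-Trp53+/+ mice, against 826, 877 and 822 in Ddx41+/+Trp53+/- and 822 and 805 in Ddx41+/-Trp53+/- mice. All 5 Trp53+/- mice lay above all 5 Trp53+/+ mice. The difference was 0.18 with Ddx41+/+ (95% interval 0.06 to 0.31, unadjusted p = 0.00679, adjusted p = 0.225) and 0.14 over both Ddx41 genotypes (0.04 to 0.24, adjusted p = 0.231), so it did not pass over all genes and was under 1.5-fold.

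Zfpm1, the FOG1 gene, held 1584, 1607 and 1424 CPM in Ddx41+/+Trp53+/+, 1511 and 1928 in Ddx41+/-Trp53+/+, 1758, 1628 and 1636 in Ddx41+/+Trp53+/-, and 1409 and 1529 in Ddx41+/-Trp53+/- mice. The Ddx41+/-Trp53+/+ mice differed from each other, since replicate 34, the shallowest library, was the highest of all and replicate 32 lay among the control values. The Ddx41 difference was 0.16 with Trp53+/+ and -0.19 with Trp53+/-, and the interaction was -0.35 (95% interval -0.62 to -0.08, unadjusted p = 0.0150, adjusted p = 0.829). Without replicate 34 these values were -0.02 with Trp53+/+ and -0.16 for the interaction. Ldb1 held 143 to 184 CPM over all mice, both of these extremes being Ddx41+/+ mice, and 177 bases of its exons (3.84%) overlap Pprc1 on the other strand. Its largest pairwise difference in the 5 comparisons of single groups was 0.07 (95% interval -0.13 to 0.28).

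Of the repressors, Gfi1b was lower in the Trp53+/- mice without passing over all genes. It held 261, 241 and 233 CPM in Ddx41+/+Trp53+/+, 229 and 235 in Ddx41+/-Trp53+/+, 221, 201 and 209 in Ddx41+/+Trp53+/-, and 183 and 231 in Ddx41+/-Trp53+/- mice. All 3 Ddx41+/+Trp53+/- mice lay below all 3 controls (-0.22, 95% interval -0.39 to -0.04, unadjusted p = 0.0177, adjusted p = 0.355). Both Ddx41+/-Trp53+/- mice also lay below the controls (-0.24, adjusted p = 0.279), and over both Ddx41 genotypes the difference was -0.20 (adjusted p = 0.218).

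Bcl11a, which silences embryonic and fetal globin genes, was low in every library. It held 19.7, 26.7 and 22.3 CPM in Ddx41+/+Trp53+/+, 23.9 and 26.4 in Ddx41+/-Trp53+/+, 26.3, 26.6 and 24.2 in Ddx41+/+Trp53+/-, and 19.3 and 23.2 in Ddx41+/-Trp53+/- mice. The controls spanned nearly the whole range, and the Ddx41+/-Trp53+/- mice lay below both single heterozygotes (-0.28 against Ddx41+/+Trp53+/- and -0.24 against Ddx41+/-Trp53+/+, adjusted p = 0.9997 and 0.958).

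**Figure D3:**
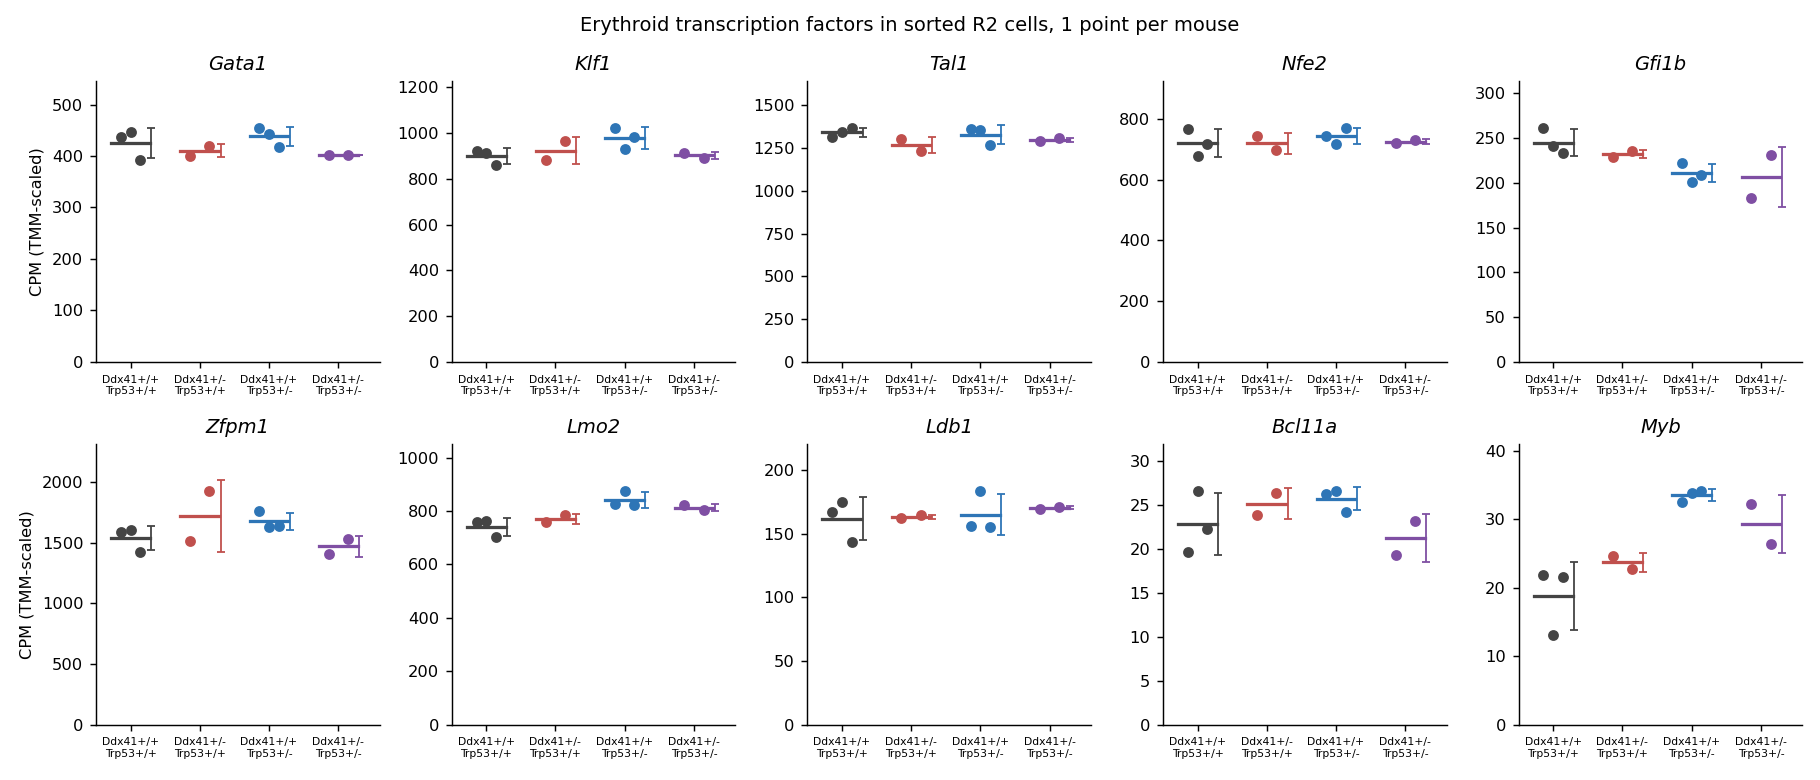
CPM (on TMM-scaled library sizes, each axis starting at 0) of the 10 factors, 1 point per mouse, in the 4 genotypes; horizontal lines are group means and the bars beside them ± SD. Lmo2 and Myb are higher in all 5 Trp53+/- mice, and the other factors overlap between the Trp53 genotypes.

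Myb varied most. It held 21.8, 13.1 and 21.5 CPM in Ddx41+/+Trp53+/+ (18.8 ± 4.95, SD, n = 3), 24.6 and 22.7 in Ddx41+/-Trp53+/+ (23.7 ± 1.34, n = 2), 32.5, 33.7 and 34.2 in Ddx41+/+Trp53+/- (33.5 ± 0.868, n = 3), and 32.2 and 26.3 in Ddx41+/-Trp53+/- mice (29.3 ± 4.20, n = 2). All 5 Trp53+/- mice lay above all 5 Trp53+/+ mice, and replicate 11 was the lowest by a wide gap. With Ddx41+/+, Myb rose by 0.84 on the log2 scale in Trp53+/- mice (95% interval 0.50 to 1.18, adjusted p = 0.0159).

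With Ddx41+/- the Trp53 difference was 0.30 (95% interval -0.12 to 0.72, adjusted p = 0.949), and over both Ddx41 genotypes it was 0.63 (0.33 to 0.92, adjusted p = 0.0567). The effects with and without the Ddx41 allele were not shown to differ (interaction -0.54, 95% interval -1.08 to 0.00342, unadjusted p = 0.0513, adjusted p = 0.996). Between double heterozygous and control mice the difference was 0.64 (adjusted p = 0.103), and between Ddx41+/- and Ddx41+/+ mice with Trp53+/+ it was 0.34 (-0.05 to 0.73, adjusted p = 0.594). The call with Ddx41+/+ was lost when replicate 23 (0.83, adjusted p = 0.0564) or replicate 24 (0.82, adjusted p = 0.0877) was left out, and the log2 fold change was 0.63 without replicate 11. An antisense gene overlaps 6.26% of Myb exon bases, and the strand setting used in counting is not given in the sources used here.

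B cell markers moved with Myb, a gene that B cell precursors also use. Of the 10 B cell markers listed, all with counts in every library, the summed level was 48.6 to 97.5 CPM in Ddx41+/+Trp53+/+, 124 to 196 in Ddx41+/-Trp53+/+, 167 to 212 in Ddx41+/+Trp53+/-, and 168 to 192 in Ddx41+/-Trp53+/- mice. Between Trp53+/- and Trp53+/+ mice with Ddx41+/+, 6 of the 10 were called higher, with a median log2 fold change of 1.25. Among these were Ebf1 (1.89), Vpreb3 (1.75), Cd79a (1.25), Ms4a1 (1.24) and Blnk (0.95). Between Ddx41+/- and Ddx41+/+ mice with Trp53+/+, 2 of 10 were called higher (Ebf1, 1.62, and Cd79a, 1.17), and between double heterozygous and control mice 4 were.

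Across the 10 libraries the log2 CPM of Myb and the mean log2 CPM of the B cell markers had a Pearson r of 0.910 (permutation p = 0.000920, adjusted over 30 relations 0.0276). Spearman's rho was 0.794 (permutation p = 0.00909, adjusted p = 0.181). Without the 2 libraries farthest from the median (replicates 10 and 11) r was 0.705. The 3 control libraries stood apart at the low end, and over the 7 libraries of other genotypes r was 0.509, while over deviations from genotype means it was 0.811. That last value rests largely on replicate 11, with Myb at 13.1 CPM and a marker mean of 1.88. The other controls, replicates 10 and 12, held 21.8 and 21.5 CPM with marker means of 2.83 and 2.95. The r over deviations was not computed without replicate 11. The part of B cells in the Myb difference was not tested.

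**Figure D4:**
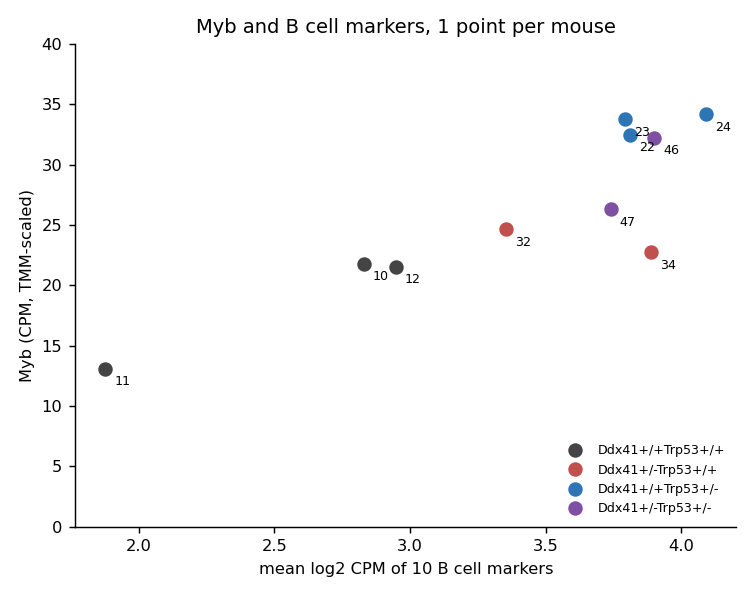
Myb (CPM, y axis) against the mean log2 CPM of 10 B cell markers (x axis), 1 point per mouse, labelled by replicate and colored by genotype. Replicate 11 is lowest on both axes, the 3 control mice lie at the lower left, and replicate 34 has B cell markers as high as the Trp53+/- mice with Myb at 22.7 CPM.

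The same relations were computed for the other members and for 2 more marker lists. None of the other 29 relations passed by r, and none of the 30 by rho. Toward B cell markers, r ranged from -0.605 (Gfi1b, adjusted p = 0.342) to 0.634 (Lmo2, adjusted p = 0.342) among them. Toward neutrophil and monocyte markers it ranged from -0.654 (Ldb1) to 0.615 (Nfe2), and toward the 4 tested megakaryocyte markers from -0.533 (Zfpm1) to 0.643 (Myb, 0.187 without replicates 11 and 34). Macrophage markers, 7 of 7, had an unadjusted p under 0.05 and lower values in Trp53+/- than in Trp53+/+ mice with Ddx41+/+, and 0 of them were called.

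The genes most like each member were taken as the 3 with the highest Pearson r of log2 CPM over the 10 libraries, among 8317 genes of at least 5 CPM. They are given as a description, with no test, over libraries that share genotypes. For Myb they were Il7r, the interleukin 7 receptor of lymphoid precursors (0.955), Ptprcap, a CD45-associated lymphocyte protein (0.945), and Siglecg, a B cell lectin (0.944). For Klf1 they were Rhd, an Rh blood group gene (0.912), Blvrb, a heme catabolism enzyme (0.901), and Mrpl43 (0.897). For Gata1 they were Add2, a membrane skeleton gene (0.946), Ube2c, a mitotic ubiquitin enzyme (0.928), and Lrwd1 (0.917). Nfe2 had Mpo, a granule enzyme of myeloid precursors, as the third (0.879). The leading gene was Cdc42bpg for Tal1, Zfp395 for Nfe2, Cox6b2 for Gfi1b, Rnf40 for Zfpm1, Ccng2 for Lmo2, Cdh24 for Ldb1 and Celf1 for Bcl11a. Among the members themselves, the highest r was that of Klf1 and Zfpm1 (0.750) and the lowest that of Gfi1b and Myb (-0.687).

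Partners of these factors were taken as 28 genes, among them the E proteins, the small MAF proteins, SSBP proteins that steady LDB1, and corepressor subunits. All 28 were tested. In Ddx41+/- against Ddx41+/+ mice with Trp53+/+, 2 were called, both higher, against 0.540% of all genes. Maff, a small MAF partner of NF-E2, held 1.95, 1.17 and 2.08 CPM in the controls and 5.60 and 3.94 CPM in Ddx41+/-Trp53+/+ mice (log2 fold change 1.5, adjusted p = 0.0493). These levels rest on 37, 24 and 30 counts in the controls and 92 and 31 counts in replicates 32 and 34. Whether the call holds with a replicate left out was not examined. Maff was also called in double heterozygous against control mice (5.05 and 6.17 CPM, 1.71, adjusted p = 0.0124) and over both Trp53 genotypes (1.23, adjusted p = 0.0402). In the Ddx41+/+Trp53+/- mice Maff held 2.70, 3.34 and 2.39 CPM, below both double heterozygous mice, a difference that was not called (1.00, adjusted p = 0.9997).

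Ssbp4, an LDB1-binding protein gene, held 14.9, 13.0 and 14.7 CPM in the controls and 26.8 and 24.8 in Ddx41+/-Trp53+/+ mice (0.86, adjusted p = 0.00716). With Trp53+/- it held 11.8, 11.4 and 12.2 CPM in Ddx41+/+ and 13.9 and 15.7 in Ddx41+/- mice, groups that did not overlap either (0.32, 95% interval 0.01 to 0.63, unadjusted p = 0.0418, adjusted p = 0.9997). Its interaction was -0.54 (unadjusted p = 0.0181, adjusted p = 0.830). Gatad2a, a subunit of the NuRD corepressor, was higher in Ddx41+/- than in Ddx41+/+ mice with Trp53+/+ by less than 1.5-fold (0.55, adjusted p = 0.00446). With Trp53+/- its difference was 0.13 (adjusted p = 0.9997), and its interaction was -0.42 (unadjusted p = 0.00331, adjusted p = 0.568). Gatad2a passed the test of any genotype (adjusted p = 0.0109), as did Maff and Ssbp4. On GRCm38, Ssbp4 (chr8:70597490-70608872) and Gatad2a (chr8:69907076-69996384) lie 14.3 and 15.0 Mb from Klf1 on the same chromosome. They lie nearer to each other than to Klf1, and whether their differences are separate was not tested. The member Zfpm1 also lies on this chromosome, 37.4 Mb from Klf1. Its difference in the same comparison was 0.16 (adjusted p = 0.619) and its interaction -0.35 (adjusted p = 0.829), values that rest largely on replicate 34, as given above. Klf1 itself differed by 0.04 in Ddx41+/- against Ddx41+/+ mice with Trp53+/+ (adjusted p = 0.911). Lyl1, a relative of TAL1 and also among the partners, lies 0.20 Mb from Klf1. It held 239, 243 and 223 CPM in the controls and 272 and 304 CPM in Ddx41+/-Trp53+/+ mice, which did not overlap (0.29, unadjusted p = 0.00117, adjusted p = 0.0955). With Trp53+/- the direction was opposite, at 251, 241 and 241 CPM in Ddx41+/+ and 228 and 219 CPM in Ddx41+/- mice. These groups did not overlap either (-0.13, adjusted p = 0.9997), and the interaction of Lyl1 was -0.42 (unadjusted p = 0.0011, adjusted p = 0.404). In Ddx41+/- against Ddx41+/+ mice with Trp53+/+, 9 of the 28 partners had an unadjusted p under 0.05, against 9.64% of all genes. Ssbp4, Gatad2a and Lyl1, which share a chromosome, were among these 9, and whether the 9 are separate differences was not tested. With Trp53+/-, 0 of the 28 were called (0.0422% of all genes) and 2 had an unadjusted p under 0.05 (3.75%). Between the Trp53 genotypes edgeR called 0 of the 28 partners on either Ddx41 background, with 6 (Ddx41+/+, 9.44% of all genes) and 5 (Ddx41+/-, 5.41%) at an unadjusted p under 0.05.

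Regulators of other stages, 17 tested of 18, held no called gene in any comparison, with 0 to 3 of them at an unadjusted p under 0.05. In Ddx41+/- against Ddx41+/+ mice with Trp53+/+, the highest log2 fold changes were those of Fli1 (0.65, adjusted p = 0.327) and Id2, an inhibitor of E proteins (0.43, adjusted p = 0.459), and the lowest those of Gata2 (-0.31, adjusted p = 0.912) and Klf3, a repressor at KLF1 sites (-0.12, adjusted p = 0.719). The Gata2 value rests on replicate 34, with 0.635 CPM on 5 counts. Replicate 32 held 4.50 CPM of Gata2, within the control values of 1.21, 4.47 and 5.05 CPM. Fli1 held 6.80 to 9.34 CPM in the controls and 9.90 to 16.4 CPM in all other mice.

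Target genes of the erythroid factors also held no called gene. Of 24 listed, 23 were in the count table and 18 tested, with 0 to 2 at an unadjusted p under 0.05 in each comparison. In Ddx41+/- against Ddx41+/+ mice with Trp53+/+ their median log2 fold change was -0.03, and in Trp53+/- against Trp53+/+ mice with Ddx41+/+ it was 0.07, with 16 of 18 positive. In Ddx41+/- against Ddx41+/+ mice with Trp53+/-, where 9 of the 10 members were negative, it was -0.07, with 15 of 18 negative. In the first of these, Icam4 (-0.08) was among the lowest, and Bcl2l1, which protects maturing red cells (0.09), and Hba-a1 (1.26, adjusted p = 0.718) were highest. The Hba-a1 value is uncertain, since it rests on 1 to 21 counts per library.

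The adult globin genes were nearly without counts. Hba-a1 and Hba-a2 held at most 21 and 4 counts in a library, Hbb-b1 at most 7, Hbb-bs at most 17, and Hbb-b2 and Hbb-bt 0, against 25470 to 30512 CPM for the red cell membrane gene Slc4a1. Of the 75-base stretches of these genes, 62.2% (Hba-a1), 81.0% (Hba-a2), 64.3% (Hbb-bs) and 56.6% (Hbb-bt) also occur in another gene. Their counts were read as uncertain, including those behind the Hba-a1 value above. The embryonic globins Hbb-y, Hbb-bh1 and Hba-x, which definitive red cells normally silence, held 1 to 47 counts per library, and none was called (0.16, -1.73 and 0.47 in Ddx41+/- against Ddx41+/+ mice with Trp53+/+). The Hbb-bh1 value rests largely on control replicate 11, with 47 counts. The other controls held 6 and 7 counts, and the Ddx41+/-Trp53+/+ mice 7 and 1.

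**Figure D5:**
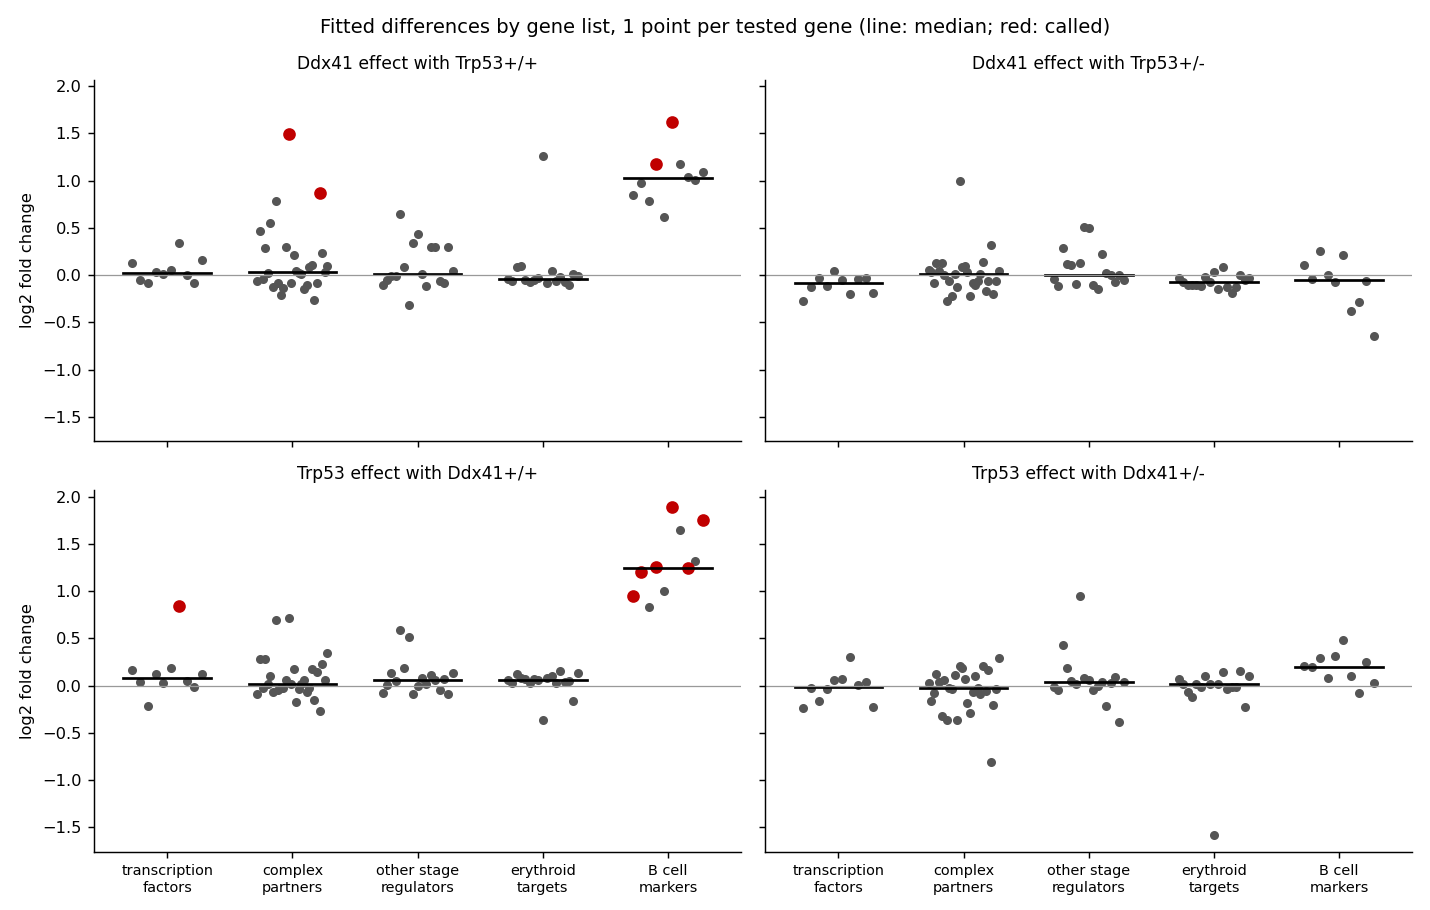
Fitted log2 fold changes (y axis), 1 point per tested gene, of the transcription factors, their complex partners, regulators of other stages, erythroid targets and B cell markers in 4 comparisons; lines are list medians and red marks called genes. The erythroid lists lie around 0, and the B cell markers lie above it in both comparisons with control mice (medians 1.02 and 1.25).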

How the data were processed

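RNA-seq was done on R2 cells of 10 mice, with the groups taken from the sample labels. The table deposited by the authors holds raw counts of reads per gene symbol, and its name marks mice 35 and 45 as left out. The submitters' processing notes name FastQC 0.11.7, HISAT2 2.0.5, featureCounts 1.5.2 and the mm10 build, and the paper names iGeak. The labels name a stranded TruSeq mRNA kit and the paper the TruSeq v2 kit, so whether reads of overlapping antisense genes were told apart is unknown.

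The counts were modelled by edgeR 4.0.16 (R 4.3.3). The filter filterByExpr, by genotype, removed 12575 genes, and libraries were scaled by TMM and fitted by the quasi-likelihood method with 1 mean per genotype over all 10 libraries, or with an additive model for effects over both genotypes of the other gene. All p-values are two-sided and adjusted by the Benjamini-Hochberg method. Intervals are 95% intervals of the fit, and log2 CPM used a prior count of 2. With 2 or 3 mice per genotype, the number of mice limits the precision. Replicates of a genotype differed by more than counting noise (chi-square per degree of freedom 6.79 to 17.4 over genes with at least 30 counts in a pair), so no library was counted as a duplicate. The procedure was tested on simulated data in which 200 genes were changed.

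Members and gene lists were chosen with earlier results of these data known. Named were all members, every listed gene called in a comparison, and otherwise the 2 lowest and 2 highest of each list. Some genes that this rule names are counted in their lists and are not reported here by name. Correlations used permutation tests with 100000 resamples in Python 3.11.15. Lengths and positions are GENCODE M21 (GRCm38). Promoters are RefSeq's. The alternatives were DESeq2 1.42.0, its size factors, edgeR's likelihood ratio test, no filter, a minimum of 10 counts per library, fits of just the groups compared, other thresholds, replicates 12 and 23 left out together, and each replicate left out in turn.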

Additional observations from a re-analysis of the deposited data

How the results depend on the processing

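No log2 fold change of a member that was called changed its direction under any alternative run. The call of Myb between the Trp53 genotypes with Ddx41+/+ was kept in 15 of 17 alternatives (log2 fold change 0.63 to 0.97, adjusted p 1.37e-07 to 0.0877), and with each replicate left out the count of members called there was 0 to 1. The call of Myb among any genotypes was lost, leaving 0 members, with DESeq2's size factors, with at least 10 counts in every library, and without replicates 12 and 23 together, and with each replicate left out the count was 0 to 1, 1 being without replicate 12. Between double heterozygous and control mice, and between the Trp53 genotypes over both Ddx41 genotypes, DESeq2, edgeR's likelihood ratio test and no filter each called 1 member (Myb), and in the latter 0 to 1 were called with each replicate left out, 1 being without replicate 47. At an unadjusted p under 0.05 with no limit on the fold, the members passing were 3 (Trp53 with Ddx41+/+), 1 (Trp53 with Ddx41+/-), 2 (both alleles), 1 (interaction), 3 (any genotype) and 3 (Trp53 over both Ddx41 genotypes). Of 30 relations to marker levels, 0 to 1 passed with each replicate left out, an alternative added after the data were seen, and Myb with the B cell markers kept r between 0.764 and 0.976. Of the members' log2 fold changes, over 1330 values in all, 1297 kept their side of the threshold and, where not called, moved by less than the standard error, 24 moved by more, and 9 gained (7) or lost (2) a call. The sign changed in 60 of the 1297 and in 6 of the 24, for 31 of the 80 member comparisons, none of them called and all at 0.16 or less in size.

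Over all genes, the count of called genes moved by more than 1.5 times: 13 to 243 for Ddx41 with Trp53+/+ (64), 1 to 39 with Trp53+/- (5), 35 to 250 for Trp53 with Ddx41+/+ (108), 13 to 67 with Ddx41+/- (20), 31 to 284 for both alleles (131), 7 to 100 for the interaction (8), 79 to 594 for any genotype (165), and 2 to 94 and 14 to 181 for the averaged Ddx41 and Trp53 effects (13 and 34), each highest with no filter. The cause was not tested. Myb and Bcl11a, at 179 to 587 counts, are the members with the widest intervals. With 2 mice in each Ddx41+/- group, leaving out either leaves a lone mouse that is assumed to vary like the other groups.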
